A study of Mus musculus with 16 samples.

Results

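The breakdown of phenylalanine and tyrosine was followed in mouse liver through 7 genes, chosen by symbol and taken in pathway order: Pcbd1, Qdpr, Tat, Hpd, Hgd, Gstz1 and Fah. Each symbol matched 1 of the 55487 Ensembl identifiers in the deposited table. All 7 passed the filter of a mean of at least 1 in transcripts per 1e6 (TPM) over the libraries, as did 11839 genes in all. TPM is the read count of a gene divided by its exon length and scaled so that each library has the same total, which allows levels of different genes to be set side by side within a library.

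The study asked how dietary protein alters the response of obese mice to G108, a long-acting peptide agonist of the glucagon receptor. The 16 libraries come from bulk liver RNA of 16 male C57BL6/J mice, 4 in each combination of agent (vehicle or G108) and diet (SP or HP). Per the labels, the mice were fed a diet with 60 kcal% fat for 8 weeks from 10 weeks of age, then switched to a high-fat diet whose protein content was standard (SP) or raised (HP), and received vehicle or 2.5 nmol/kg G108 under the skin daily for 22 days before a 4 h fast and cull. The labels place the cull on day 25, and the study's methods place it on day 22. The methods also give other values for the starting age and the weeks of high-fat feeding. Every group, controls included, was made obese by diet and stayed on a high-fat diet, so no lean reference was part of the comparison. In bulk liver, fewer cells of a type and less RNA per cell cannot be told apart.

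Phenylalanine is converted to tyrosine with the help of tetrahydrobiopterin, a cofactor that is spent in the reaction and restored by Pcbd1, a dehydratase, and Qdpr, a reductase. Tat, the tyrosine aminotransferase, then commits tyrosine to breakdown, Hpd and Hgd oxidise and open its ring, Gstz1 isomerises the product, and Fah splits it into fumarate and acetoacetate. The route is most active in hepatocytes, and Tat is a classic gene of the fasted liver whose transcription responds to glucocorticoids and to glucagon acting through cyclic AMP.

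Depth was 27.8 M to 45.03 M assigned reads per library (M, 1e6), as recovered from the steps of low TPM values, and the lowest read count of any member in any library was 3377 (Pcbd1 in vehicle HP mouse 4). Because TPM is a share, the level of every gene depends on the most abundant transcripts. The Mup genes, which encode the major urinary proteins secreted by mouse hepatocytes, held 42.6 to 49.7% of TPM in vehicle SP, 35.7 to 44.9% in vehicle HP, 18.3 to 23.0% in G108 SP and 18.2 to 29.6% in G108 HP. The library with the highest mitochondrial share was G108 HP mouse 3, at 37.3%, against 13.8 to 27.4% in the other libraries. Of the marker genes of hepatocytes, 8 were measured and summed to 25440.4 to 48767 TPM per library, while the adipocyte list summed to at most 1.19 TPM and the lymphocyte list to at most 4.88 TPM.

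The members spanned a range of levels in vehicle SP. Hpd was the most abundant at 537 ± 75.2 TPM (mean ± SD, n = 4 here and below), which was 37.1% of the summed TPM of the 7 genes. Fah followed at 221 ± 23.6, Tat at 215 ± 90.9, Pcbd1 at 164 ± 30.0, Hgd at 126 ± 37.8, Qdpr at 113 ± 38.5 and Gstz1 at 76.9 ± 13.3 TPM. The mice of each pair of neighbours in this order overlapped, except those of Hpd and Fah. The members summed to 1453 ± 232 TPM in vehicle SP, 2036 ± 297 in vehicle HP, 4057 ± 629 in G108 SP and 3391 ± 724 in G108 HP.

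**Figure D1:**
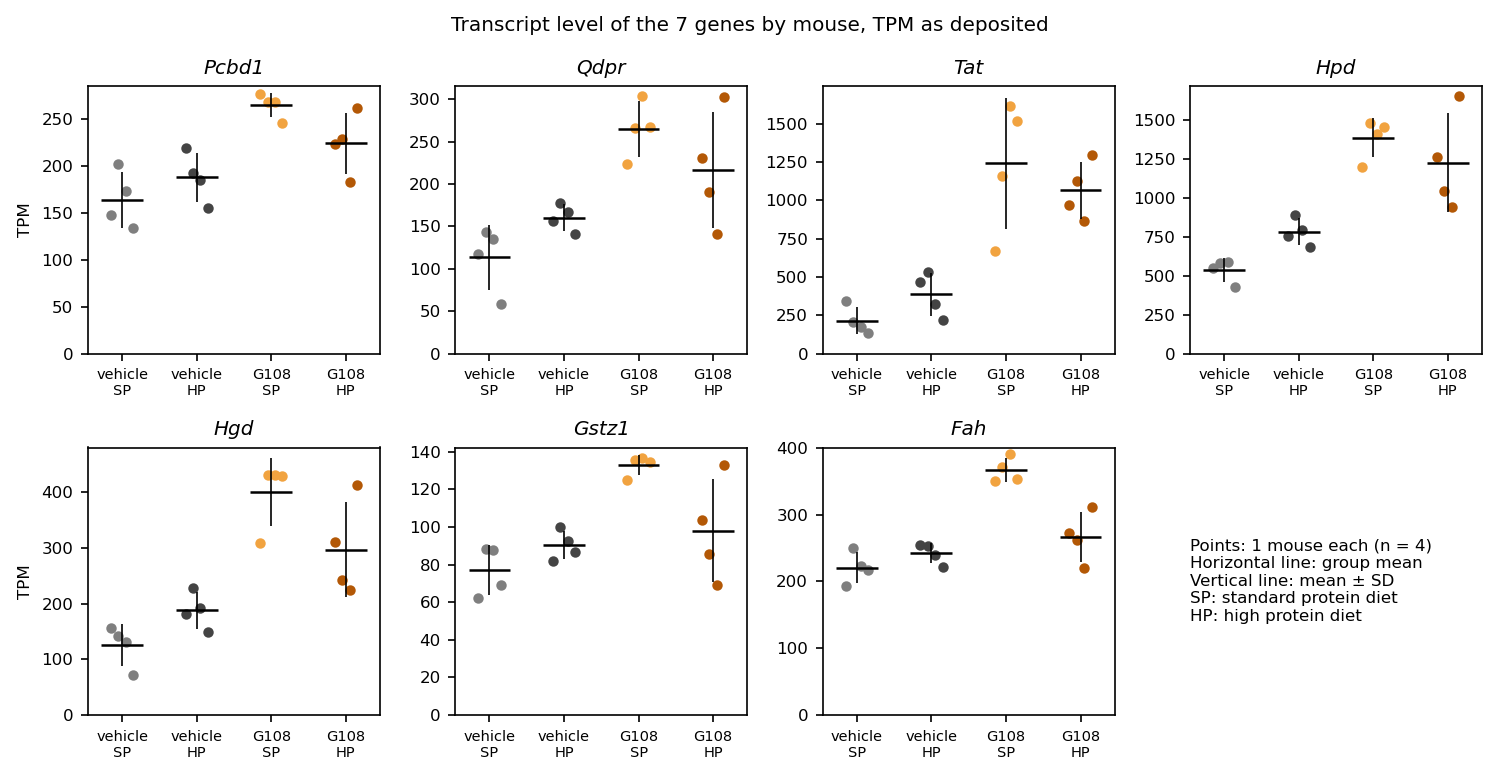
TPM of each of the 7 genes by group, 1 point per mouse, with the group mean and SD; each vertical axis starts at 0. All 4 mice of G108 SP lie above all 4 of vehicle SP for each of the 7 genes, and on HP this holds for Tat and Hpd.

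G108 against vehicle on SP asked what the agonist did to these genes at standard protein. Transcripts of all 7 genes were higher with G108, by 1.62 times (Pcbd1) to 5.76 times (Tat) in group means, and the groups did not overlap for any of them. All 7 passed the test (limma, Benjamini-Hochberg adjusted p under 0.05 over all genes), but so did 77.0% of the genes tested in that direction, and 56.0% of genes had groups that did not overlap in that direction. The median log2 fold change was 1.29 over the members and 0.60 over all genes tested. Changes are therefore also given relative to that median, and after median-of-ratios scaling, a step that centres the median gene near 0 and cannot show a change in total RNA. The p-values set differences of group means against the spread between the mice sampled.

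Among the cofactor enzymes, Pcbd1 (chr10:61089331-61094324 in GRCm38, plus strand) read 147, 202, 173 and 134 TPM in vehicle SP and 277, 268, 269 and 246 in G108 SP. Its log2 fold change of 0.70 (SE 0.16, adjusted p = 0.00222) exceeded the median of all genes by 0.11. Pcbd1 thus rose with G108 on the TPM scale by little more than the typical gene. Qdpr (chr5:45434021-45450236, minus strand) read 117, 144, 135 and 58.2 TPM in vehicle SP, where mouse 4 was lowest, and 224, 266, 303 and 267 in G108 SP. Its log2 fold change of 1.29 (SE 0.26, adjusted p = 0.00146) exceeded the median by 0.69.

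Tat (chr8:109990437-109999803, plus strand) had the largest change of the 7 genes. It read 345, 205, 175 and 136 TPM in vehicle SP and 669, 1159, 1614 and 1519 TPM in G108 SP. The lowest G108 value, in mouse 1, was still above the highest vehicle value, also in mouse 1. The log2 fold change was 2.53 (SE 0.33, adjusted p = 0.000179), 1.93 above the median of all genes. With the rise, Tat went from 14.6 ± 4.90% of the summed TPM of the members in vehicle SP to 29.8 ± 6.59% in G108 SP.

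The dioxygenases Hpd and Hgd were raised as well. Hpd (chr5:123171807-123182727, minus strand), which makes homogentisate, read 552, 583, 587 and 427 TPM in vehicle SP and 1200.0, 1481, 1412 and 1452 in G108 SP, a log2 fold change of 1.37 (SE 0.18, adjusted p = 0.000161). Hgd (chr16:37580153-37632020, plus strand), which opens the ring of homogentisate, read 157, 143, 132 and 71.1 TPM in vehicle SP and 309, 431, 431 and 429.9 in G108 SP, a log2 fold change of 1.71 (SE 0.25, adjusted p = 0.000326). Vehicle SP mouse 4 was lowest for both and G108 SP mouse 1 was the lowest treated mouse for both. The fold changes of Hpd and Hgd exceeded the median of all genes by 0.78 and 1.11.

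The last enzymes of the route, like Pcbd1, changed little beyond the median. Gstz1 (chr12:87147165-87164723, plus strand), the maleylacetoacetate isomerase, read 62.2, 88.4, 87.9 and 69.2 TPM in vehicle SP and 125, 136, 137 and 135 in G108 SP, a log2 fold change of 0.80 (SE 0.18, adjusted p = 0.00222). Fah (chr7:84585159-84606722, minus strand), the fumarylacetoacetate hydrolase, read 193, 250.4, 222 and 217 TPM in vehicle SP and 351, 372, 391 and 354 in G108 SP, a log2 fold change of 0.74 (SE 0.13, adjusted p = 0.000887). Their excess over the median was 0.20 for Gstz1 and 0.14 for Fah.

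After median-of-ratios scaling, 3 of the 7 genes passed the test as higher with G108 on SP, namely Tat, Hpd and Hgd, against 1.33% of all genes. On this scale Tat ranged from 197 to 499 in vehicle SP and from 571 to 1051 in G108 SP, a log2 fold change of 1.75 (SE 0.31, adjusted p = 0.00633). Hpd rose by 0.60 (SE 0.12, adjusted p = 0.0110), from 605 to 798 in vehicle SP to between 919 and 1121 in G108 SP. Hgd rose by 0.94 (SE 0.18, adjusted p = 0.0124), from 104 to 227 in vehicle SP to between 263 and 326 in G108 SP. These 3 calls were made in each of the 8 fits that left out a library of the compared groups, where the adjusted p reached 0.0299 for Tat, 0.0486 for Hpd and 0.0492 for Hgd.

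Qdpr was intermediate and the other members stayed with the median gene. The groups of Qdpr did not overlap after scaling, with 85.5 to 169 in vehicle SP and 182 to 201 in G108 SP, yet its log2 fold change of 0.52 (95% interval 0.14 to 0.89) had an adjusted p of 0.151. Groups without overlap were thus seen for 4 of the 7 genes, against 4.52% of all genes. The scaled differences were -0.07 for Pcbd1 (95% interval -0.36 to 0.22), 0.03 for Gstz1 (-0.18 to 0.24) and -0.04 for Fah (-0.27 to 0.20). The direction for Pcbd1 and Fah therefore turned between the scales, and for these 3 genes the TPM rise on SP was of the size of the shift of all genes.

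**Figure D2:**
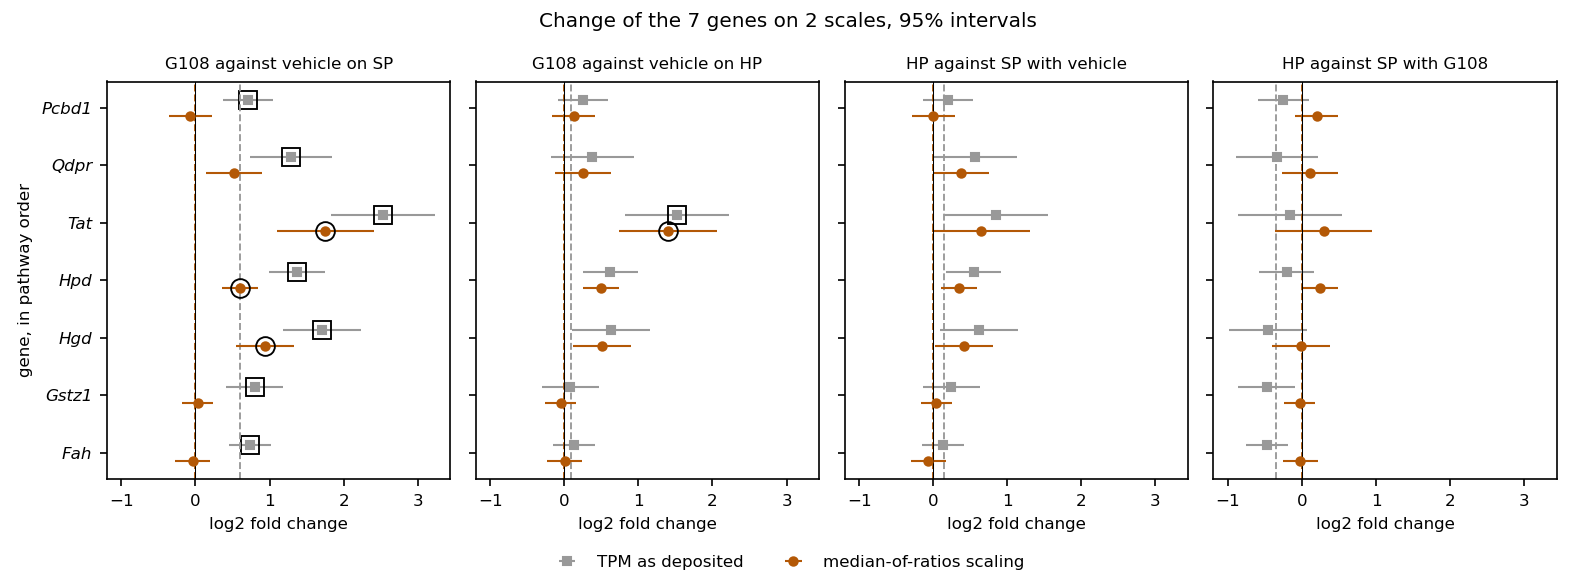
Log2 fold change of each gene in 4 comparisons, with 95% intervals, from TPM as deposited (squares) and after median-of-ratios scaling (circles). Dashed lines mark the median of all genes on each scale, and an open outline marks an adjusted p under 0.05; after scaling, Tat, Hpd and Hgd are outlined on SP and Tat on HP.

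G108 against vehicle on HP asked the same at high protein, where the median gene differed by only 0.09. Tat was the only member that passed the test, against 0.819% of all genes tested as higher (132 calls in both directions, 0 without vehicle HP mouse 4 and 7 without vehicle HP mouse 3). It read 466, 532, 324 and 221 TPM in vehicle HP and 972, 1123, 865 and 1296 in G108 HP, so the groups did not overlap, and the log2 fold change was 1.52 (SE 0.33, adjusted p = 0.0357). After scaling it was 1.40 (SE 0.31, adjusted p = 0.0408), again the only call among the members, against 0.642% of all genes. The call was not firm. Leaving out any of vehicle HP mice 3 and 4 or G108 HP mice 1 to 4 gave an adjusted p of 0.0622 to 0.151 with log2 fold changes of 1.28 to 1.62. After scaling the call was also lost without vehicle HP mouse 2 (0.0524), and the adjusted p over the 8 fits ran from 0.0359 to 0.159.

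Hpd and Hgd were also higher in the mean with G108 on HP without passing the test. Hpd read 758, 891, 795 and 683 TPM in vehicle HP and 1261, 1043, 940.4 and 1656 in G108 HP, which did not overlap, with a log2 difference of 0.62 (adjusted p = 0.121) and of 0.49 after scaling (adjusted p = 0.0509). Hgd read 182, 228, 192 and 149 TPM in vehicle HP and 310.4, 242, 224 and 413 in G108 HP, where mouse 3 fell below the highest vehicle mouse. Its log2 difference was 0.63 (adjusted p = 0.297), and 0.51 after scaling (adjusted p = 0.253), where the groups no longer overlapped. Groups without overlap were thus seen for 2 of the 7 genes in TPM, against 7.67% of all genes, and for 3 of 7 after scaling, against 4.20%.

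The other members overlapped on HP. Qdpr read 156, 177, 167 and 141 TPM in vehicle HP and 231, 191, 141 and 302 in G108 HP. Pcbd1 ranged from 155 to 219 and from 183 to 262 TPM, Gstz1 from 82.2 to 99.8 and from 69.3 to 133, and Fah from 222 to 254 and from 220.2 to 311. Mouse 3 of G108 HP, the library with the high mitochondrial share, was lowest in its group for all 7 members in TPM. After scaling it was lowest for Qdpr and Gstz1, and its values for Tat (1031), Hpd (1121) and Hgd (267) lay within those of the other mice. After rescaling TPM without mitochondrial and Mup genes, it was the lowest of its group for all 7 members. On that scale Tat was at 1942 against 1968 to 2432, and Gstz1 at 156 against 185 to 240.0. The cause of the low values of this mouse was not tested.

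High protein without G108 was compared in the vehicle groups, and no gene of the 11839 passed the test (limma; 0% called, 374 genes at an unadjusted p under 0.05; voom on recovered reads called 0, with 474 at an unadjusted p under 0.05). The median gene was higher on HP by 0.14 in TPM. Among the members, the largest mean differences were those of Tat, from 215 ± 90.9 to 386 ± 139.8 TPM (log2 0.85), and of Hgd, from 126 ± 37.8 to 188 ± 32.6 TPM (log2 0.62). Hpd was 427 to 587 TPM on SP and 683 to 891 on HP, so its groups did not overlap, a pattern that 1.33% of all genes showed in that direction (log2 0.55). In limma, Tat, Hpd, Hgd and Qdpr were at an unadjusted p under 0.05, and the adjusted p was 0.727 for each of the 7 genes. After scaling, Tat differed by 0.64, Hgd by 0.42, Qdpr by 0.37 and Hpd by 0.34 (limma, adjusted p = 0.832 for each). Of the members, Hpd and Hgd were at an unadjusted p under 0.05 (limma, 0.00911 and 0.0373). Pcbd1, Gstz1 and Fah differed by 0.00, 0.04 and -0.06. No member was among the 0.938% of genes whose groups did not overlap.

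High against standard protein in mice given G108 likewise gave 0 calls among the 11839 genes (limma, 0%; 5325 at an unadjusted p under 0.05; voom called 0, with 654 at an unadjusted p under 0.05). The TPM of every member was lower in the mean on HP, as was the median gene, by 0.35. Fah ranged from 351 to 391 TPM in G108 SP and from 220.2 to 311 in G108 HP (log2 -0.47, adjusted p = 0.0728). After scaling, Fah differed by -0.02 (adjusted p = 0.965) and the members lay between -0.03 (Gstz1) and 0.29 (Tat), with adjusted p from 0.858 upward. Without G108 SP mouse 1 or without G108 HP mouse 4, Fah passed on the TPM scale (adjusted p = 0.0437 and 0.0308), as did Gstz1 in the latter fit (0.0308). In those fits 3012 and 5047 of the 11839 genes were called in TPM, and 0 after scaling.

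The interaction of G108 and diet asks whether the response to G108 differed between diets. No gene passed (limma, 0% called; 5685 at an unadjusted p under 0.05; voom called 0, with 916 at an unadjusted p under 0.05). All 7 members had a smaller TPM rise on HP than on SP, from -0.45 for Pcbd1 to -1.08 for Hgd in log2, and the median gene shifted by -0.49. After scaling the interaction was -0.35 (SE 0.44) for Tat, -0.10 (SE 0.16) for Hpd and -0.43 (SE 0.26) for Hgd, with adjusted p of 0.575 or more for every member. A larger response of Tat on SP than on HP was thus not shown. Without vehicle SP mouse 2, without G108 SP mouse 1 or without G108 HP mouse 4, 5 of the 7 members passed on the TPM scale, among 3466 to 5202 genes called in all, and none after scaling.

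G108 HP against vehicle SP combined both interventions and shares its control mice with the comparison on SP. Tat, Hpd and Hgd passed as higher both in TPM, against 4.00% of all genes, and after scaling, against 1.41%. Their log2 fold changes in TPM were 2.37 for Tat, 1.17 for Hpd and 1.25 for Hgd (adjusted p = 0.0012, 0.00171 and 0.0094). After scaling they were 2.04, 0.84 and 0.93. Qdpr was just outside the threshold (log2 0.95, adjusted p = 0.0513), passed without vehicle SP mouse 2 (0.0376) or G108 HP mouse 3 (0.0276), and had a scaled difference of 0.63 (adjusted p = 0.0784). Pcbd1, Gstz1 and Fah differed by 0.13, 0.00 and -0.06 after scaling.

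**Figure D3:**
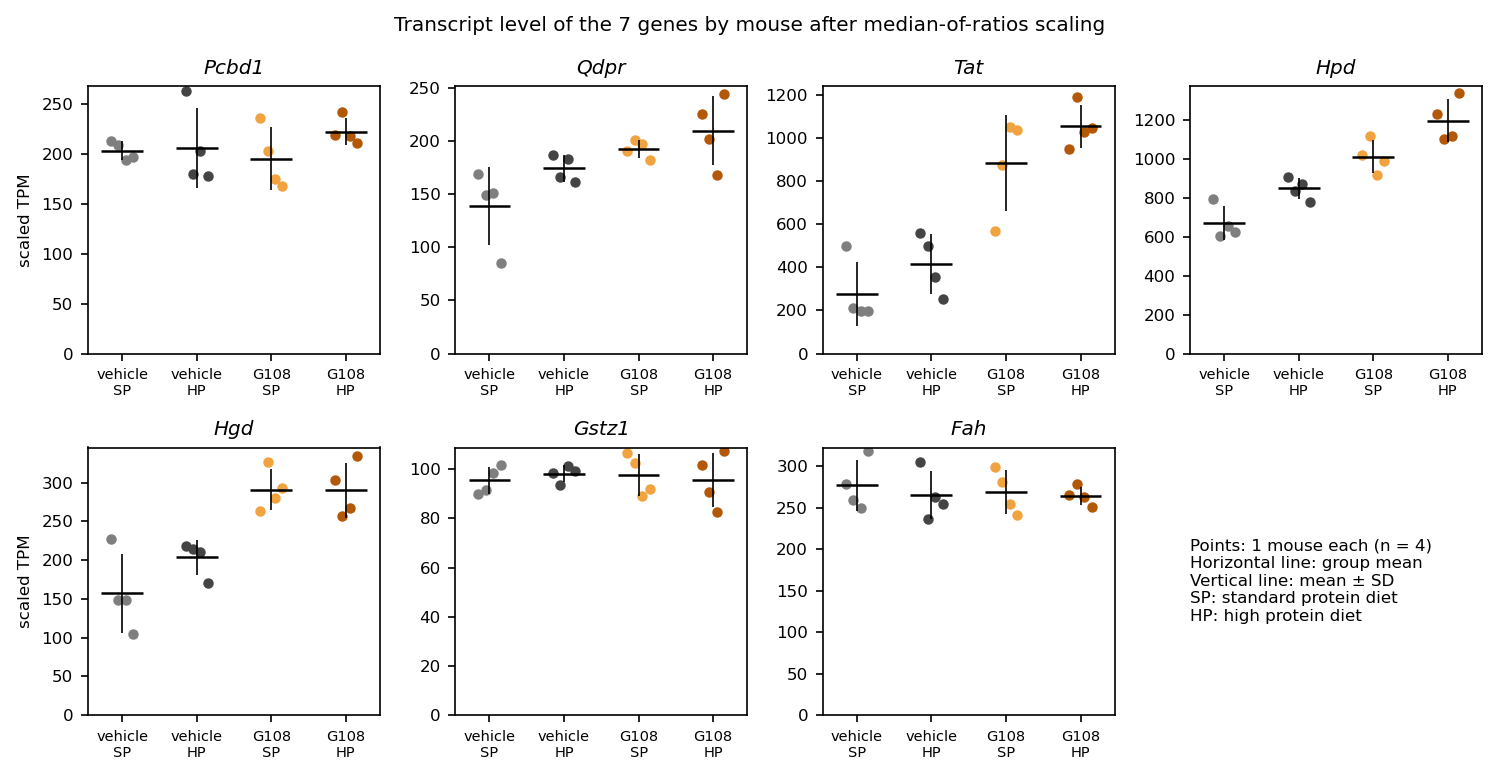
The same 7 genes after median-of-ratios scaling of the libraries, 1 point per mouse, with the group mean and SD; each vertical axis starts at 0. Tat, Hpd and Hgd separate G108 from vehicle on both diets, while Gstz1 and Fah overlap between all 4 groups.

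Ratios between members within a mouse do not depend on how libraries are scaled, and were chosen after the values were seen, so they are described with no test. The ratio of Tat to Fah, the entry step over the last, was 1.79, 0.82, 0.787 and 0.627 in vehicle SP and 1.83, 2.10, 1.35 and 0.996 in vehicle HP. With G108 it was 1.91, 3.12, 4.13 and 4.29 on SP and 3.58, 4.28, 3.93 and 4.17 on HP. Only G108 SP mouse 1 fell into the range of the vehicle mice, and the G108 HP mice were the most alike.

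The ratio of Hpd to Fah was 1.97 to 2.86 in vehicle SP, 2.98 to 3.52 in vehicle HP, 3.42 to 4.10 in G108 SP and 3.97 to 5.33 in G108 HP. That of Gstz1 to Fah, neighbours in the route, was 0.347 ± 0.0353, 0.374 ± 0.0337, 0.363 ± 0.0130 and 0.363 ± 0.0528 in the same order of groups. The group means of Gstz1 to Fah thus differed by less than the spread between mice. Qdpr to Pcbd1, the cofactor enzymes, was 0.680 ± 0.167 in vehicle SP and 1.00 ± 0.143 in G108 SP, and the lowest G108 SP mouse (0.807) lay just above the highest vehicle SP mouse (0.794). On HP it was 0.861 ± 0.0996 with vehicle and 0.948 ± 0.177 with G108, and the mice overlapped.

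**Figure D4:**
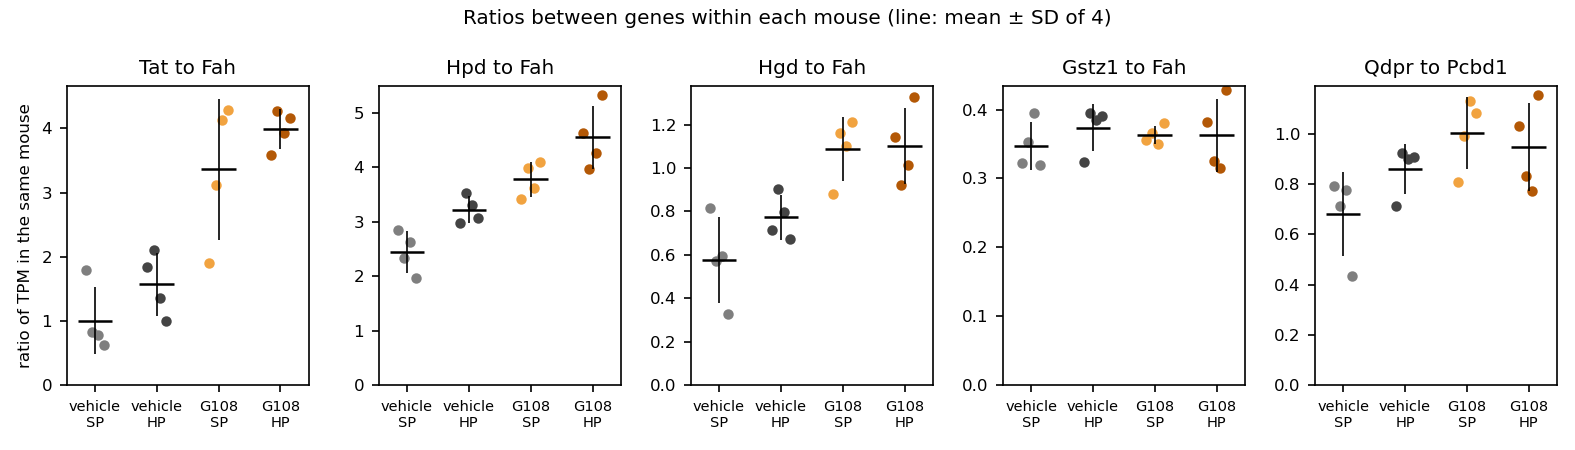
Ratio of the TPM of 2 genes in the same mouse, by group, 1 point per mouse, with mean and SD; each vertical axis starts at 0. Tat to Fah is 1.91 to 4.29 with G108 and 0.627 to 2.10 with vehicle, while Gstz1 to Fah has group means of 0.347 to 0.374.

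Correlations across the 16 libraries are a description only, since the libraries share groups and depth. They use log2(TPM + 1) less the median of the genes tested in each library. Hpd and Hgd correlated with r = 0.94, Tat and Hgd with 0.92, Tat and Hpd with 0.91 and Qdpr and Hgd with 0.92. Tat correlated weakly with Fah (0.22) and Gstz1 (0.16). Within groups, after each group mean was taken off, Hpd and Hgd still gave 0.86 and Qdpr and Hgd 0.86, while Tat and Hpd gave 0.46. Pcbd1 and Fah gave 0.63 over the libraries and 0.76 within groups.

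Genes most like each member over the 16 libraries (Pearson r of log2 levels less the library median) were found by 1 rule for all members. Those of Hgd were Ass1 (0.98) and Arg1 (0.97), both of the urea cycle, and Hagh (0.98). Those of Hpd were Oat (0.97), the ornithine aminotransferase, Lhpp (0.96) and Gls2 (0.95), the liver glutaminase. Tat had Gm15690 (0.97), Fh1 (0.97), the fumarase that takes up the fumarate released by Fah, and Etnppl (0.97). Fh1 rose from 34.2 ± 15.5 TPM in vehicle SP to 148 ± 41.2 in G108 SP and was 109 ± 28.7 in G108 HP. Pcbd1 was most like Phb (0.96), Vamp8 (0.93) and Ndufb11 (0.93), Gstz1 most like Manbal (0.85), Get4 (0.82) and Csnk2a1 (0.82), and Fah most like Pus1 (0.89), Nit1 (0.83) and Snx6 (0.83).

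The closest match of Qdpr was its own antisense gene. Gm42413 lies on the opposite strand within the same span (15750 shared bases) and followed Qdpr with r of 0.997, at a mean TPM of 348% of that of Qdpr. Whether the counting used strand is not given in the sources used here, so the reads of Qdpr and Gm42413 cannot be told apart and the level of Qdpr is uncertain. The other near genes of Qdpr were Gm20441 (0.97) and Gstm7 (0.97). Genes that overlap Hpd (Psmd9), Hgd (Gm46559) and Gstz1 (Pomt2 and Gm6566) on the opposite strand had at most 2.66% of the member's TPM, and no annotated gene overlapped Pcbd1, Tat or Fah.

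Promoter sequences just before the gene starts were searched for motifs, as a description with no test. RefSeq windows of 250 bases before the start (GRCm38.p6) were found for all 7 genes, with 2 windows for Gstz1, and are shown for Tat, Hpd and Hgd, which passed on SP after scaling, and for Pcbd1, which did not. Capitals mark matches to any of 6 motifs searched on both strands: the cyclic AMP response element TGACGTCA, its short form TGACG, the short glucocorticoid motif TGTTCT, the HNF1 motif GTTAAT, the TATA box TATAAA and the C/EBP motif TTGCGCAA; the short form lies within the full element. Each line runs 5′ to 3′ in the direction of the gene.
Tat (chr8:109990186-109990435, plus strand): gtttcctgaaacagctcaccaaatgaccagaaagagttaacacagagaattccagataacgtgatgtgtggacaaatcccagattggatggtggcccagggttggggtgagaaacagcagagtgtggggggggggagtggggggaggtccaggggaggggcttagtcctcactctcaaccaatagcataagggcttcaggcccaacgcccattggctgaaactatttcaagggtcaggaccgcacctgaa
Hpd (chr5:123182724-123182973, minus strand): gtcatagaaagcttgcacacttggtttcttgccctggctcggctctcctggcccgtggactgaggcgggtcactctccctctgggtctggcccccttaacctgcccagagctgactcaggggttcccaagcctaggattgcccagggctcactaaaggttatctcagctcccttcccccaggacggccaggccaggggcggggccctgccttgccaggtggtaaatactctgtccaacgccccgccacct
Hgd (chr16:37579903-37580152, plus strand): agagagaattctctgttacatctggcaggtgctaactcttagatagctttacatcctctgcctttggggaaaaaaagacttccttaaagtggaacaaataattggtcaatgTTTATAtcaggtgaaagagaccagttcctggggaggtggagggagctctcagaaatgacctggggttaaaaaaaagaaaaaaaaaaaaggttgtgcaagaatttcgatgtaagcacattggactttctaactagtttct
Pcbd1 (chr10:61089081-61089330, plus strand): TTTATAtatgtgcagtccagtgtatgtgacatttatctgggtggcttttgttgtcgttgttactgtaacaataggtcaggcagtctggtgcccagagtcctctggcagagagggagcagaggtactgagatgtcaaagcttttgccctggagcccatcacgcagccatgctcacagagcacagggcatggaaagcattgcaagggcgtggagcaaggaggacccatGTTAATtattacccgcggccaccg

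None of the 6 motifs was found in the windows of Tat, Hpd, Qdpr or Fah. Hgd had the TATA letters on the opposite strand 139 to 134 bases before the start, and Pcbd1 had them 250 to 245 bases before it, also on the opposite strand. Pcbd1, whose protein is also known as a cofactor of HNF1, carried the HNF1 motif 24 to 19 bases before its start. Gstz1 had the short form of the cyclic AMP element 47 to 43 bases before the first of its starts. Of the 32851 RefSeq windows, 1.55% held the full cyclic AMP element, 17.8% the short form, 16.1% the glucocorticoid motif, 6.43% the HNF1 motif, 12.4% the TATA box and 0.164% the C/EBP motif. Letters missing from a window of this length say nothing about sites elsewhere.

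The surroundings of the pathway were read from gene lists, with calls after scaling. Of the genes listed for tetrahydrobiopterin supply, such as Gch1, 0 of 7 passed in either direction on SP (limma, 3 at an unadjusted p under 0.05). On HP 0 passed as well (0 at that unadjusted level). The list medians were 0.24 and 0.00. On the TPM scale all 7 were called higher on SP with a median of 0.89, beside 77.0% of all genes and a median of 0.60.

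Of the other enzymes that act on tyrosine and its relatives, 2 of 10 tested rose on SP and 0 fell. Got1, the cytosolic aspartate aminotransferase, rose by 2.24 after scaling (SE 0.28, adjusted p = 0.000481), a larger change than that of any member. In unscaled TPM, which holds the shift of all genes on SP, Got1 was 33.1 ± 14.9 in vehicle SP and 260.3 ± 69.4 in G108 SP. Ddc, the aromatic amino acid decarboxylase, rose by 0.94 after scaling (adjusted p = 0.0393). In unscaled TPM Ddc was 3.63 ± 1.57 in vehicle SP and 12.8 ± 4.68 in G108 SP. On HP none of the 10 passed, with Got1 at 0.88 (adjusted p = 0.173).

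Downstream of Fah, 1 of 6 genes rose and 1 fell on SP. Fh1 rose by 1.38 (SE 0.27, adjusted p = 0.0111), and Aacs, which activates acetoacetate for lipid synthesis, fell by 1.45 on the log2 scale (SE 0.36, adjusted p = 0.0471). On HP they differed by 1.03 and -1.21 (adjusted p = 0.0881 and 0.149). Of 3 measured transporters of aromatic amino acids 0 passed on either diet, and Slc16a10 differed by 0.41 on SP (adjusted p = 0.0834) and passed in G108 HP against vehicle SP (0.59, adjusted p = 0.0129).

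Among 11 measured regulators known for these genes, Ppargc1a, a coactivator of the fasted liver, was the one called after scaling. Its log2 rise after scaling was 0.89 on SP and 0.66 on HP (limma, adjusted p = 0.00274 and 0.0337). In unscaled TPM, which holds the shift of all genes, Ppargc1a was 0.741 ± 0.279 in vehicle SP and 3.56 ± 0.957 in G108 SP. On HP it was 0.907 ± 0.0911 with vehicle and 2.18 ± 0.481 with G108. Both vehicle means lay under the filter of 1 TPM. Ppargc1a passed that filter only through its G108 groups, so its call is a description only. Nr3c1, the glucocorticoid receptor, differed by 0.03 on SP and -0.17 on HP (adjusted p = 0.901 and 0.665). Of 10 genes known to be induced by glucocorticoids, 2 passed as higher on SP, Sgk1 by 0.84 and Errfi1 by 0.60 (adjusted p = 0.00497 and 0.00301). On HP Sgk1 rose by 1.08 (adjusted p = 0.00929). The list median on SP was 0.26, and 8 of 10 lay above the median of all genes. Fkbp5 (-0.24) and Tsc22d3 (-0.09) lay below it. A glucocorticoid response was not tested.

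Beside the breakdown of other amino acids, the members had the higher median on SP after scaling, which is a description and not a test between lists. The median log2 change was 0.52 for the 7 members with 3 calls, 0.39 for serine, threonine and glycine breakdown with 1 call of 8 (Sds, 1.19, adjusted p = 0.0413), 0.14 for histidine and proline breakdown with 1 of 7 (Aldh4a1, 0.70, adjusted p = 0.0238), and 0.13 for tryptophan breakdown with 0 of 8 (limma; 2 at an unadjusted p under 0.05). It was -0.01 for all genes. On HP the medians were 0.25, 0.05, 0.25 and 0.11, with 1 call among the members and 0 in the other lists.

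**Figure D5:**
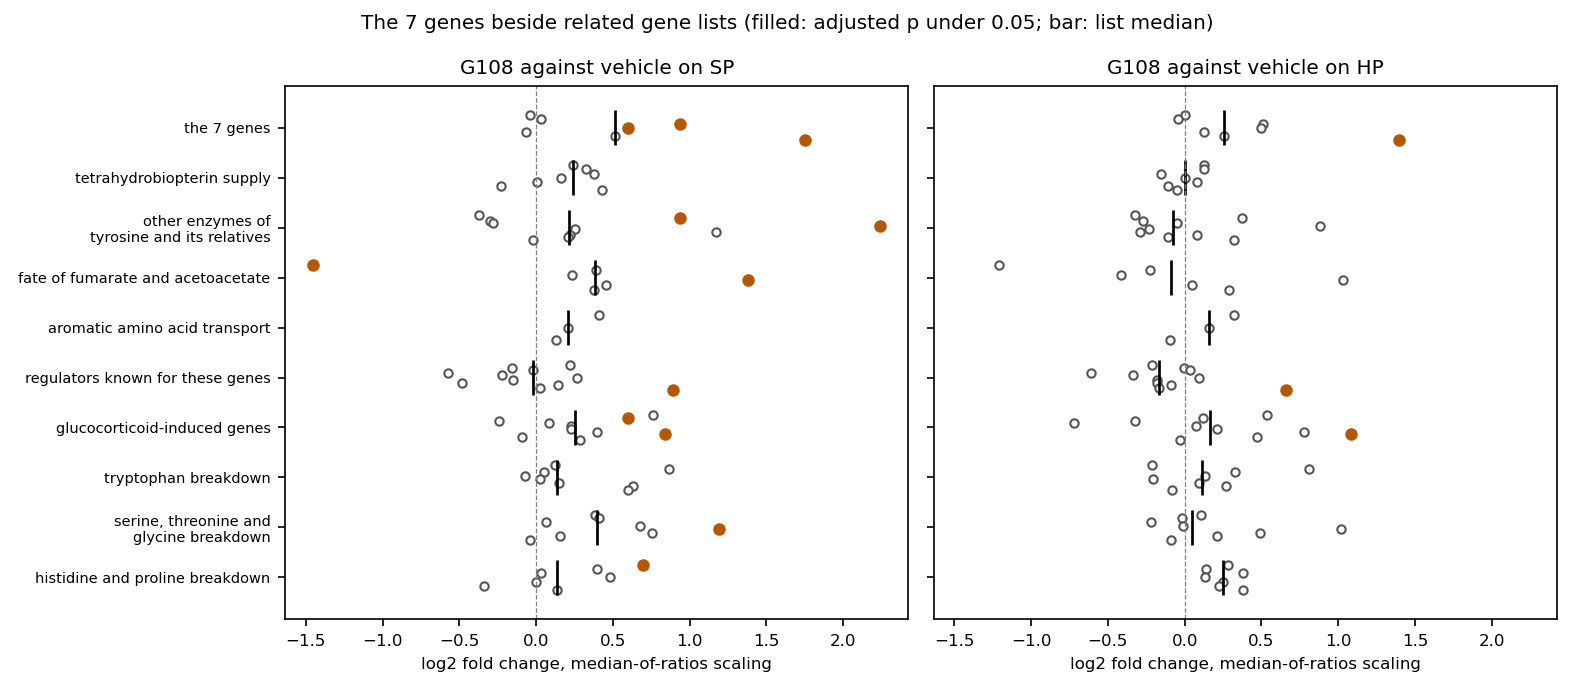
Log2 change with G108 after median-of-ratios scaling for the 7 genes and 9 related lists, on SP (left) and HP (right), 1 point per gene, filled where the adjusted p is under 0.05, with a bar at the list median. Tat is the highest point of the 7 genes on both diets, and Got1 is the highest point on SP.

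Genes that mark zones of the liver lobule were summed for each mouse. The summed scaled level of 6 periportal markers ranged from 827 to 1783 in vehicle SP, 1209 to 1679 in vehicle HP, 1847 to 2466 in G108 SP and 2313 to 2540.0 in G108 HP, with 3 of 6 called higher on SP, Pck1, Gls2 and Sds, and 0 of 6 on HP (limma; 5 at an unadjusted p under 0.05). Of the other periportal markers, Cyp2f2 differed by -0.33 on SP and -0.63 on HP, Hal by 0.48 and 0.13, and Arg1 by 0.67 and 0.58. The pericentral list of 6 genes summed to 2314 to 4133, 2933 to 4400, 2650.2 to 3535 and 2282 to 3666 in the same order, with 2 of 5 tested called higher on SP, Oat and Slc1a2, and 0 on HP (limma; 3 at an unadjusted p under 0.05). The other 3 tested had negative values on SP, -0.16 for Glul, -0.35 for Cyp2e1 and -0.37 for Cyp1a2, and the list median was -0.16. Lists of Kupffer, endothelial, stellate and red blood cell markers had 0 calls on SP or HP after scaling (limma; 7 genes at an unadjusted p under 0.05 on SP and 0 on HP). The part of these zones or cells in the levels of the members was not tested.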

How the data were processed

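Bulk liver RNA of 16 mice was sequenced. The submitters' processing notes name FastQC 0.11.8, HISAT2 2.0.5, featureCounts, DESeq2 1.36.0 and the build GRCm38. Their settings, strand use in counting included, are not given in the sources used here. The deposited values are TPM, made by the authors from their gene counts, 1 column per mouse, grouped here by the labels. Of 55487 identifiers, 55227 had a symbol in the GENCODE M21 annotation.

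Genes with a mean of at least 1 TPM (11839) were tested on log2(TPM + 1) with limma 3.58.1 in R 4.3.3, with an intensity trend and 1 mean per group over all 16 libraries, and Benjamini-Hochberg adjustment over all genes. A gene was called at an adjusted p under 0.05. Fold changes are on the log2(TPM + 1) scale, which understates changes of low genes. Median-of-ratios factors came from 11591 genes. Whole reads were recovered from TPM, with 98.7% of 139252 low values within 0.02 of a whole number, and tested with voom as an alternative. Leaving out libraries and the replicate block after median-of-ratios scaling were chosen after seeing the data. The fit was tested on simulated data.

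The members and lists were chosen with earlier results of these data known. All members were named, with the 3 genes most like each and up to 4 called genes per list and comparison with the smallest adjusted p. The other list genes named, the ratios, and the markers set beside results were chosen after their values were seen. Other filters, pseudocount, scalings, weights, a replicate block and leaving out each library were tried.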

Additional observations from a re-analysis of the deposited data

Results flagged for a closer look

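Hgd in G108 SP mouse 1 stood apart from the other 3 mice of its group, at 308.782 TPM against 429.9 to 431 TPM, with a gap of 0.989 of the group's range. A gap above Dixon's critical value for 4 samples was looked for in 28 groups of 4 mice (7 genes in 4 groups), where chance marks about 1 group in 20. The same mouse was also the lowest of its group for Qdpr, Tat, Hpd, Gstz1 and Fah in TPM. After median-of-ratios scaling the Hgd values of the group were 263, 326, 280.4 and 293, so that mouse 1 no longer stood apart, and it was the highest of its group for Gstz1 (107) and Fah (299.5). Without it, Hgd still passed on SP.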

How the results depend on the processing

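On SP, 7 members passed in TPM, beside 77.0% of all genes called higher. Under median-of-ratios scaling, rescaling without mitochondrial and Mup genes, and voom on recovered reads, 3 members passed. The genes called higher in these 3 alternatives were 158 of 11839, 145 of 11759 and 174 of 11811. On HP, 1 member passed in TPM, beside 0.819% of all genes called higher. There 0 passed with no filter on low values, with that rescaling or with the mouse number as a replicate block. With array quality weights 3 did, among 2126 of the 11839 genes called, and without single libraries 0 to 1 did. After scaling, the 1 call on HP stood beside 0.642% of all genes called higher. It was 0 with the replicate block and 0 to 1 without single libraries. The mouse numbers did not pair the mice (correlation of same-numbered deviations -0.575 to 0.527, over 0.1 in 8 of 24). From 0 calls, HP against SP with G108 gave 5 with array quality weights, among 8502 of the 11839 genes called. It gave 0 to 2 without single libraries, in fits that called up to 5047 genes. The interaction gave 6 with array quality weights, among 7267 genes called. Without single libraries it gave 0 to 5, in fits that called up to 5202 genes. The cause was not tested.

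Directions turned under median-of-ratios scaling, rescaling and voom, in that order where 3 values stand. On SP, Pcbd1 was -0.0687, -0.00452 and -0.0675, and Fah was -0.0392 with median-of-ratios scaling and -0.0352 with voom. On HP, Gstz1 was -0.0457, -0.125 and -0.0487, and -0.0811 to 0.229 without single libraries, and Fah was -0.0761 with rescaling. For HP against SP with G108, Pcbd1 was 0.198, 0.0491 and 0.197, Tat 0.291, 0.142 and 0.299, Hpd 0.242, 0.0925 and 0.240, and Qdpr 0.1103 and 0.109 with median-of-ratios scaling and voom. For vehicle, Fah was -0.0631, -0.0690 and -0.0610 and Pcbd1 -0.00383 with rescaling. For G108 HP against vehicle SP, Gstz1 was -0.00327, -0.0877 and -0.00447 and Fah -0.0603, -0.145 and -0.0591. For the interaction, Pcbd1 was 0.196, 0.0530 and 0.195, and Fah 0.0420 and 0.0372 with median-of-ratios scaling and voom.

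Of 371 member values in alternatives other than leaving out a library, 310 kept direction and side of the threshold, as did 365 of 392 with a library left out and 42 of 42 with a pseudocount of 0.1. Over all genes, the 9185 calls on SP became 322, 237 and 350 under the 3 scalings, and 4479 with a mean TPM of at least 5, where fewer genes were tested. Those on HP (132) became 37 with no filter, 84 with the compared groups only, 71 with the block and 2126 with array weights. Without vehicle HP mouse 4, vehicle HP mouse 3, G108 HP mouse 4, 3 or 2, or vehicle SP mouse 4, they became 0, 7, 29, 32, 50 and 209. Of the SP calls in TPM, 9113 were higher and 72 lower, against 158 higher and 164 lower after scaling. G108 HP against vehicle SP gave 531 calls, 339 with no filter, 335 after median-of-ratios scaling, 332 with rescaling, 342 with voom, 188 with the compared groups only, 296 with the block and 1565 with array weights. Array weights gave 8502 calls for HP against SP with G108, 7267 for the interaction and 79 for the vehicle groups, each 0 otherwise in TPM with all libraries and the filter at 1.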
